A study of Mus musculus with 6 samples.

Results

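Interferon response genes were read in big neurospheres treated with norepinephrine or KCl. The list used holds 43 genes and spans the pathway from receptor to effector. Of these, 40 had a probe set with 1 gene symbol and were measured, among 19937 named genes in all. Isg15 and Gbp2 lay only on probe sets that carry several symbols, and Ifi44 was not analysed here. A gene was represented by 1 probe set, the one with the highest mean over the 6 arrays, and all values are log2 expression values.

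Hippocampal tissue of male adult C57BL/6J mice, 8 to 12 weeks old, was grown as primary neurospheres, floating colonies of neural precursor cells. All 6 samples are titled big neurospheres, so the values describe big colonies and not the whole culture. They were grown with EGF and bFGF and collected on day 14. Of them, 3 received 10 µM norepinephrine and 3 received 15 mM KCl, with a whole-transcript array for each sample. Every difference below is norepinephrine minus KCl, and without an untreated group among the arrays it cannot say which of the treatments shifted a gene. The labels call the samples biological replicates without naming separate animals or cultures, and the p-values therefore reflect only how these samples spread. In such bulk RNA, fewer cells of a type and less RNA per cell cannot be told apart.

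Interferons are secreted signals by which cells announce viral infection. Type I interferons bind the receptor pair Ifnar1 and Ifnar2 and type II interferon binds Ifngr1 and Ifngr2, and Jak kinases then phosphorylate Stat proteins. Stat2 and Irf9 are parts of a complex that binds the interferon-stimulated response element (ISRE), and a second element of interferon-responsive promoters is the gamma-activated site (GAS). The induced genes encode sensors of viral RNA, inhibitors of translation and of viral entry, and the machinery that loads peptides onto MHC class I. Many are also expressed at a basal level without added interferon.

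Promoter sequences are shown first, so that the elements through which interferon is known to act can be read before the values. RefSeq windows (GRCm38.p6) from 250 bases before to 50 bases after a transcript start were matched to 32 of the 40 measured genes by gene identifier. An ISRE was searched as GAAA, any pair of bases and GAAA again, or its reverse complement with TTTC on each side of the pair. A GAS was searched as TTCNNNGAA, which reads the same on both strands. Of 39 windows of measured members, 13 held an ISRE match (33.3%), against 3.44% of all 32851 windows. A GAS match was in 12 of the 39 windows (30.8%), against 8.3% of all. Matches of the motifs overlapped each other in 2 member windows, those of Bst2 and Ifitm3. A match is a run of letters and not evidence of binding.

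The 250 bases upstream are printed for members with an unadjusted p under 0.05 and an ISRE match in those bases. Cxcl10 and Ifit3 met both conditions and had the lowest unadjusted p-values of the list. Ifitm3 met only the condition on p, its matches starting after the transcript start. The Cxcl10 window lies at chr5:92348890-92349139 on the minus strand and that of Ifit3 at chr19:34583279-34583528 on the plus strand. Capitals mark ISRE matches. The match of Cxcl10 starts at position -213 relative to the transcript start, and those of Ifit3 at positions -156 and -122.

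Cxcl10: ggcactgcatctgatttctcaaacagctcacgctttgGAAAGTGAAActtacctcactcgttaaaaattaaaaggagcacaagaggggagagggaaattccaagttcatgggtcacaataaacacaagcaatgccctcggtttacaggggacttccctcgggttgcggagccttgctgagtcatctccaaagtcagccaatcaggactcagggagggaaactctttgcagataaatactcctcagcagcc
Ifit3: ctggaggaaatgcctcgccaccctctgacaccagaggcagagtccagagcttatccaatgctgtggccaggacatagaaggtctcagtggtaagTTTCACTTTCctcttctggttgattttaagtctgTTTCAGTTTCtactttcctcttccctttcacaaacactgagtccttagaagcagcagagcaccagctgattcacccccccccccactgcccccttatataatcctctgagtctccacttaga

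For Ifit1 and members of other roles, 30 bases around the ISRE match nearest the transcript start are given, to be read side by side. They are at chr7:141010723-141010752 (minus) for Ifitm3, chr19:34640794-34640823 (plus) for Ifit1, chr2:62646206-62646235 (minus) for Ifih1, chr12:26456553-26456582 (minus) for Rsad2, chr10:128270266-128270295 (plus) for Stat2 and chr2:122147538-122147567 (plus) for B2m. Again, capitals mark the match.

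Ifitm3: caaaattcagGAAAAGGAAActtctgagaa
Ifit1: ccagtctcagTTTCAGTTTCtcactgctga
Ifih1: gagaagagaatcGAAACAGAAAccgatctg
Rsad2: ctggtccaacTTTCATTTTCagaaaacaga
Stat2: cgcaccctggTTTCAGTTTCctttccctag
B2m: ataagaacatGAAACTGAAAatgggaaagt

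Ifit1, Stat2 and the second match of Ifit3 share the letters TTTCAGTTTC, and the B2m match GAAACTGAAA is the same element on the other strand. The 13 members with an ISRE match had a median difference of 0.24, from -0.09 to 1.35, and 12 of them read higher with norepinephrine. The 19 members whose windows held no match had a median of 0.15, from -0.38 to 0.75, with 13 higher with norepinephrine. These medians were 0.17 and 0.12 without KCl replicate 1. The set with a match holds Cxcl10, Ifit3 and Ifitm3, the members with an unadjusted p under 0.05. The matches of Ifitm3 start after the transcript start, at positions 3 and 20. So do those of Ifih1 (33), Ddx58 (3) and Eif2ak2 (19). The set without a match holds Ifit2, at 0.75. A missing match means only that these letters were not in the window. Whether the sets differ was not tested.

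Of the 40 measured genes, 29 (72.5%) read higher with norepinephrine, against 38% of all named probe sets. The median difference was 0.15, against -0.07 over all named probe sets. The list was chosen with earlier results of these data known, so these contrasts describe it and test nothing. None passed the test across all genes: by limma with Benjamini-Hochberg adjustment, 0 of 40 members and 0% of the 21640 named probe sets had an adjusted p under 0.05. Adjusted p-values of the members ran from 0.939 to 0.989. At an unadjusted p under 0.05 there were 3 members (7.5%), Cxcl10, Ifit3 and Ifitm3, against 3.43% of all named probe sets. All 3 read higher with norepinephrine. Of all named probe sets, 2.2% had such a p and read higher with norepinephrine. The groups did not overlap in 5 members (12.5%), against 9.13% of all. Norepinephrine was the higher group in 4 of them, Cxcl10, Ifit1, Ifit3 and Parp9 (4.36% of all), and KCl in Ifnar1. The share without overlap lay near the background, and the share at an unadjusted p under 0.05 rests on 3 genes.

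The array of KCl replicate 1 stood apart, with a standard deviation of 1.38 over the named probe sets against 1.62 to 1.78 on the other 5. On it bright probe sets read low and dim ones high, so that above the median brightness 59.2% of all probe sets read higher with norepinephrine and below it 16.7%. The members divided evenly by that median. Of the 20 bright members 16 read higher with norepinephrine, with a median of 0.20, and of the 20 dim members 13 did, with a median of 0.10 where all dim probe sets had -0.16. Without KCl replicate 1, 30 of the 40 members read higher with norepinephrine, against 52.2% of all probe sets, and the medians were 0.15 and 0.01. Bright members then had a median of 0.11, with 13 of 20 higher (51.2% of all bright probe sets). Dim members had a median of 0.16, with 17 of 20 higher (53.1% of all dim ones). The unchanged member median thus covers shifts in opposite directions. On the same 5 arrays 6 members had an unadjusted p under 0.05 (15%, against 4.63% of all), these being Cxcl10, Ifit3, Ifitm3, Ifit1, Rtp4 and, alone in reading higher with KCl, Ifnar1 (2.38% of all had such a p and read higher with norepinephrine). No member passed there after adjustment (0.0185% of all probe sets did), and the lowest adjusted p was 0.455.

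The count at an unadjusted p moved with the arrays used. It was 6 without KCl replicate 2, where 16.3% of all probe sets had such a p, 3 without KCl replicate 3 (3.05%) or norepinephrine replicate 2 (2.07%), and 2 without norepinephrine replicate 1 (1.46%) or norepinephrine replicate 3 (1.65%). After centring the arrays it was 5 (3.76%), after a further quantile normalization 6 (4.36%), and with the replicate number as a block 8 (6.64%), with no member called after adjustment in any of these. Weighting the arrays by their own noise, an alternative added after seeing the data, moved the calls most. The weights of KCl replicates 1, 2 and 3 were 0.158, 0.288 and 6.76, so the KCl side of that fit rested mostly on KCl replicate 3 alone. In that fit 12 members had an unadjusted p under 0.05 (23.9% of all), and 6 passed after adjustment (6.72% of all), namely Cxcl10, Ifit1, Ifit2, Ifit3, Irf2 and Ifnar1.

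**Figure D1:**
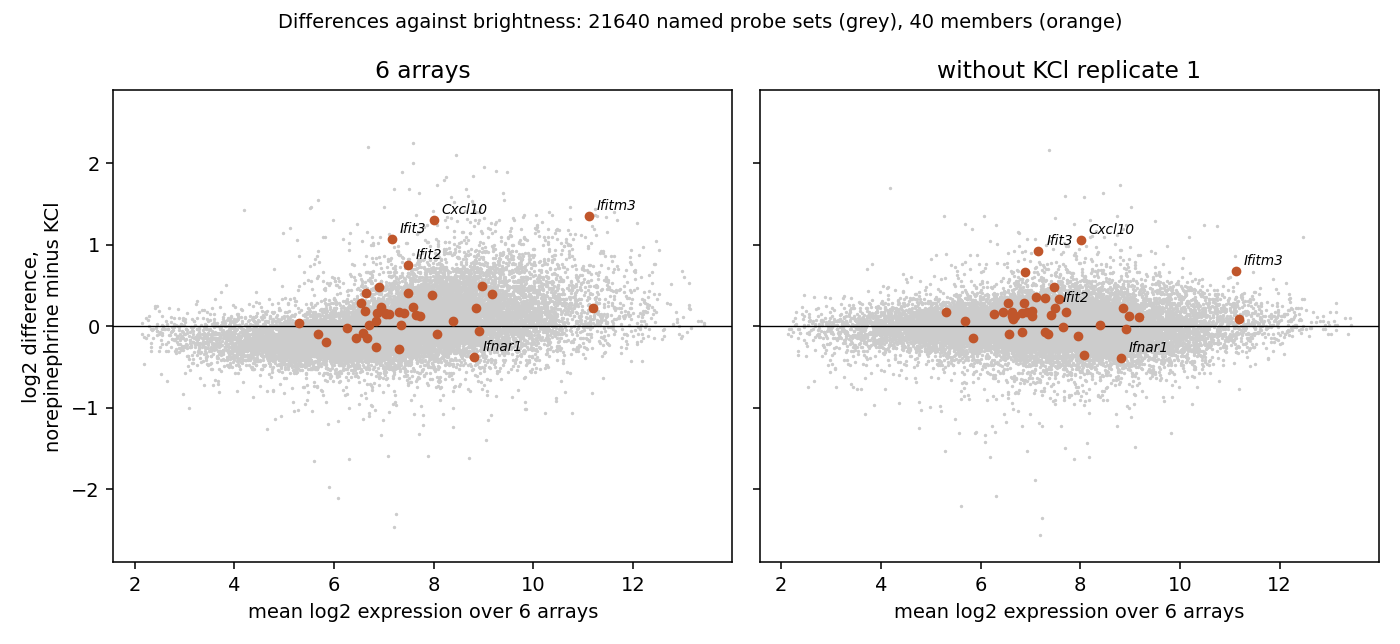
Log2 difference, norepinephrine minus KCl, against the mean log2 expression over 6 arrays, for 21640 named probe sets in grey and the 40 interferon response genes in orange, on 6 arrays (left) and without KCl replicate 1 (right). The grey cloud tilts upward with brightness on 6 arrays and lies flat without KCl replicate 1, while Cxcl10 (1.31 and 1.06) and Ifit3 (1.07 and 0.92) stay near its upper edge in both.

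Cxcl10, a chemokine that attracts T cells and is induced by interferon in astrocytes and many other cells, had the lowest unadjusted p-value of the list. It read 8.34, 8.16 and 9.50 on norepinephrine replicates 1 to 3 and 6.87, 7.71 and 7.50 on KCl replicates 1 to 3. All norepinephrine arrays lay above all KCl arrays, with norepinephrine replicate 3 highest and KCl replicate 1 lowest. The difference was 1.31 ± 0.37 (log2 difference ± SE, n = 3 per group), a 2.47-fold difference, with adjusted p = 0.939 in limma. It was 0.89 without norepinephrine replicate 3 and at most 1.56 with another array left out.

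The IFIT proteins bind viral RNA and block its translation, and their genes lie close together on chromosome 19. All 3 read higher with norepinephrine. Ifit3 read 7.15, 7.48 and 8.45 with norepinephrine and 6.32, 6.71 and 6.84 with KCl. As for Cxcl10, the groups were separate, norepinephrine replicate 3 was highest and KCl replicate 1 lowest. The Ifit3 difference was 1.07 ± 0.33 (adjusted p = 0.939 in limma). Leaving out norepinephrine replicate 3 gave 0.69, and leaving out KCl replicate 1 gave 0.92.

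Ifit1 readings were 7.22, 7.04 and 7.16 with norepinephrine and 7.04, 6.45 and 6.48 with KCl. The norepinephrine arrays lay close together, KCl replicate 1 came within rounding of norepinephrine replicate 2, and the other KCl arrays read low. The difference was 0.48 ± 0.22 on 6 arrays and 0.67 ± 0.16 without KCl replicate 1, where its adjusted p of 0.455 was the lowest of the list. Ifit2 gave 7.79, 8.10 and 7.71 against 6.07, 8.17 and 7.11. Its groups overlapped, since KCl replicate 2 was the highest array of all and KCl replicate 1 the lowest by a wide margin. The Ifit2 difference of 0.75 ± 0.45 was 0.23 without KCl replicate 1 and 1.28 without KCl replicate 2. Averaged over the 3 genes, norepinephrine arrays gave 7.39 to 7.77, KCl replicate 2 gave 7.11, KCl replicate 3 gave 6.81 and KCl replicate 1 gave 6.47.

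**Figure D2:**
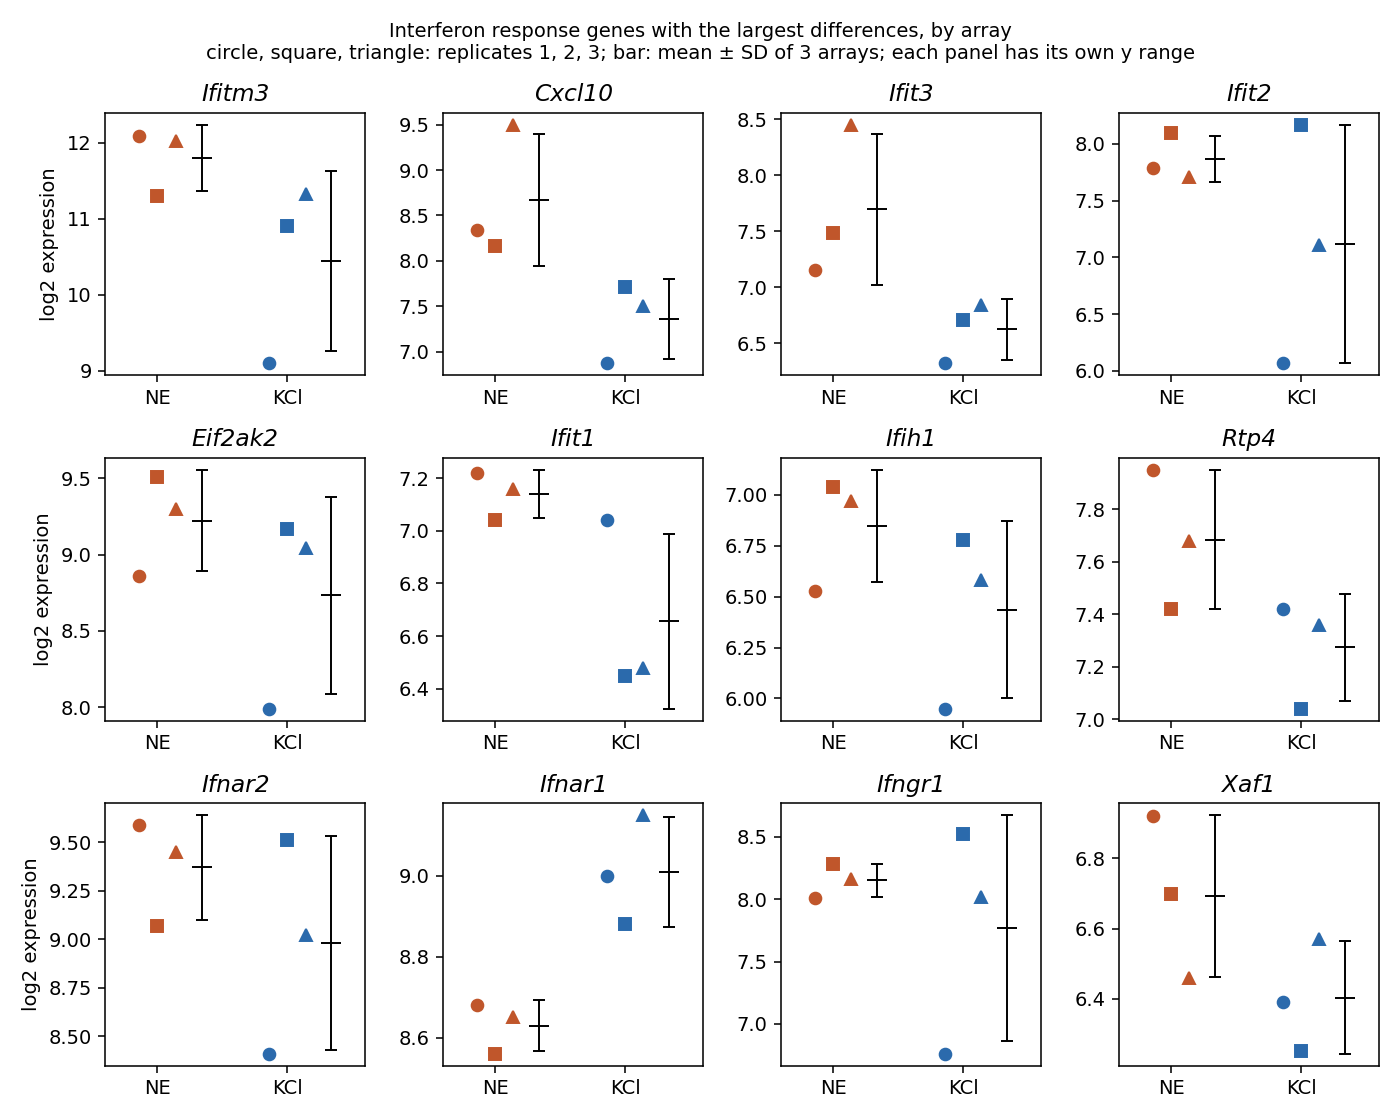
Log2 expression on each array for the 12 members with the largest absolute differences, with norepinephrine (NE, orange) and KCl (blue); symbols mark replicates 1, 2 and 3 and the bar gives the mean ± SD of 3 arrays. Cxcl10 and Ifit3 have all norepinephrine points above all KCl points, and Ifnar1 has them all below. For Ifit1, norepinephrine replicate 2 and KCl replicate 1 are drawn at the same rounded value of 7.04. KCl replicate 1 lies far under the other KCl arrays for Ifitm3, Ifit2, Eif2ak2 and Ifngr1.

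Ifitm3, a membrane protein that hinders virus entry from endosomes, had the largest difference. It read 12.08, 11.30 and 12.02 with norepinephrine and 9.10, 10.91 and 11.33 with KCl. Norepinephrine replicate 2 lay just below KCl replicate 3, so the groups overlapped, and KCl replicate 1 was far below every other array. The difference of 1.35 ± 0.52 (adjusted p = 0.939 in limma) was 0.68 ± 0.26 without KCl replicate 1. Eif2ak2, the kinase PKR that halts translation on double-stranded RNA, read 8.86, 9.51 and 9.30 against 7.99, 9.17 and 9.04. Here too KCl replicate 1 alone was low and the other arrays of both groups intermixed, and the difference of 0.49 ± 0.33 was 0.12 without it. Rtp4, an interferon-induced inhibitor of viral replication, read 7.95, 7.42 and 7.68 against 7.42, 7.04 and 7.36. Its groups met at norepinephrine replicate 2 and KCl replicate 1, and the difference was 0.41 ± 0.21, or 0.48 ± 0.20 without KCl replicate 1.

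The other 10 measured effectors differed by less. Xaf1, a promoter of apoptosis, stood at 0.29 ± 0.20, the tetherin gene Bst2, whose product holds budding virions at the cell surface, at 0.24 ± 0.21, and viperin (Rsad2), which makes a chain-terminating nucleotide, at 0.24 ± 0.25. The exonuclease Isg20 stood at 0.15 ± 0.27 and Oasl2, of the oligoadenylate synthetase family, at 0.16 ± 0.20. The dynamin-like GTPases Mx1 and Mx2 lay on either side of 0, at 0.04 ± 0.20 and -0.19 ± 0.21. Samhd1, which degrades deoxynucleotides, stood at -0.06 ± 0.19, the GTPase Gbp3 at -0.09 ± 0.32 and Ifi35 at -0.15 ± 0.24. None of these reached an unadjusted p under 0.05, and Isg20, Mx1, Samhd1, Gbp3 and Ifi35 changed sign when 1 array was left out.

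Of the receptor subunits, Ifnar1 was the member read lowest with norepinephrine relative to KCl. It read 8.68, 8.56 and 8.65 with norepinephrine and 9.00, 8.88 and 9.15 with KCl. Every KCl array lay above every norepinephrine array, and both groups were tight, with SDs of 0.06 and 0.14. The difference was -0.38 ± 0.18 (adjusted p = 0.939 in limma), and -0.45 to -0.31 with any 1 array left out. Its partner Ifnar2 pointed the other way, with 9.59, 9.07 and 9.45 against 8.41, 9.51 and 9.02. The groups overlapped and KCl replicate 1 was lowest, and the difference of 0.39 ± 0.29 was 0.11 without that array. Ifngr1 gave 8.01, 8.28 and 8.16 against 6.76, 8.52 and 8.02, with KCl replicate 1 again far below. Its difference of 0.38 ± 0.40 was -0.12 without KCl replicate 1, and Ifngr2 stood at 0.06 ± 0.21.

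The transcription factors had a median difference of 0.02 over 8 genes, of which 5 read higher with norepinephrine. Irf2, a factor that can repress Irf1 targets, read 8.79, 9.17 and 8.93 against 8.72, 9.08 and 8.40. The groups overlapped, with KCl replicate 3 lowest, and the difference of 0.23 ± 0.23 was 0.06 without that array. Irf1, an activator induced by type II interferon, read 7.39, 6.97 and 7.12 against 7.85, 7.09 and 7.38 on its representing probe set. These groups overlapped as well, and the difference of -0.28 ± 0.24 was -0.07 without KCl replicate 1, the highest array. The second Irf1 probe set differed by 0.24 ± 0.23, so the direction for Irf1 depended on the probe set. Irf9 and Stat2, the DNA-binding and activating parts of the type I complex, stood at 0.16 ± 0.19 and 0.02 ± 0.19. Irf3, which switches on interferon genes after sensing, stood at 0.12 ± 0.19 and Irf7, its amplifier, at 0.01 ± 0.23. Irf5 and Irf8, factors best known from myeloid cells, stood at -0.14 ± 0.29 and -0.26 ± 0.23, and at 0.18 and -0.07 without KCl replicate 1.

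Among the RNA sensors, Ifih1, which encodes MDA5, a sensor of long double-stranded RNA, read 6.53, 7.04 and 6.97 against 5.95, 6.78 and 6.58. Norepinephrine replicate 1 fell within the KCl range and KCl replicate 1 was lowest, and the difference of 0.41 ± 0.26 was 0.17 without it. Ddx58, which encodes RIG-I, read 7.58, 7.93 and 7.65 against 7.29, 7.69 and 7.77. The groups overlapped, the difference was 0.14 ± 0.21, and it was -0.01 without KCl replicate 1. Dhx58, the regulator LGP2, stood at -0.09 ± 0.22.

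Of the genes that modify proteins with ubiquitin, ISG15 or ADP-ribose, Parp9 had separate groups although its difference was small. It read 7.17, 7.06 and 7.11 with norepinephrine and 7.04, 6.89 and 6.96 with KCl, a difference of 0.15 ± 0.17. Its partner Dtx3l, an E3 ubiquitin ligase encoded next to it, read 6.45, 6.96 and 6.75 against 6.40, 7.03 and 6.17. There the groups overlapped, with both the highest and the lowest reading on KCl arrays, and the difference of 0.19 ± 0.26 was 0.00 without KCl replicate 3 and 0.43 without KCl replicate 2. Parp14 and Usp18, the protease that removes ISG15 and dampens receptor signalling, stood at -0.02 ± 0.22 and -0.08 ± 0.17.

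All 4 genes of MHC class I assembly read higher with norepinephrine, from 0.06 to 0.23, and none reached an unadjusted p under 0.05. B2m, the light chain of MHC class I, read 11.39, 11.22 and 11.33 against 10.79, 11.29 and 11.16. KCl replicate 1 was lowest and KCl replicate 2 lay within the norepinephrine range, and the difference of 0.23 ± 0.20 was 0.09 without KCl replicate 1. The peptide transporter subunits Tap1 and Tap2 stood at 0.17 ± 0.23 and 0.06 ± 0.20, and tapasin (Tapbp), which bridges transporter and MHC, at 0.16 ± 0.20. Without KCl replicate 1 these 3 stood at 0.35, 0.16 and 0.14, and without KCl replicate 2 at -0.03, -0.06 and 0.03, so that the direction for Tap1 and Tap2 turned.

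**Figure D3:**
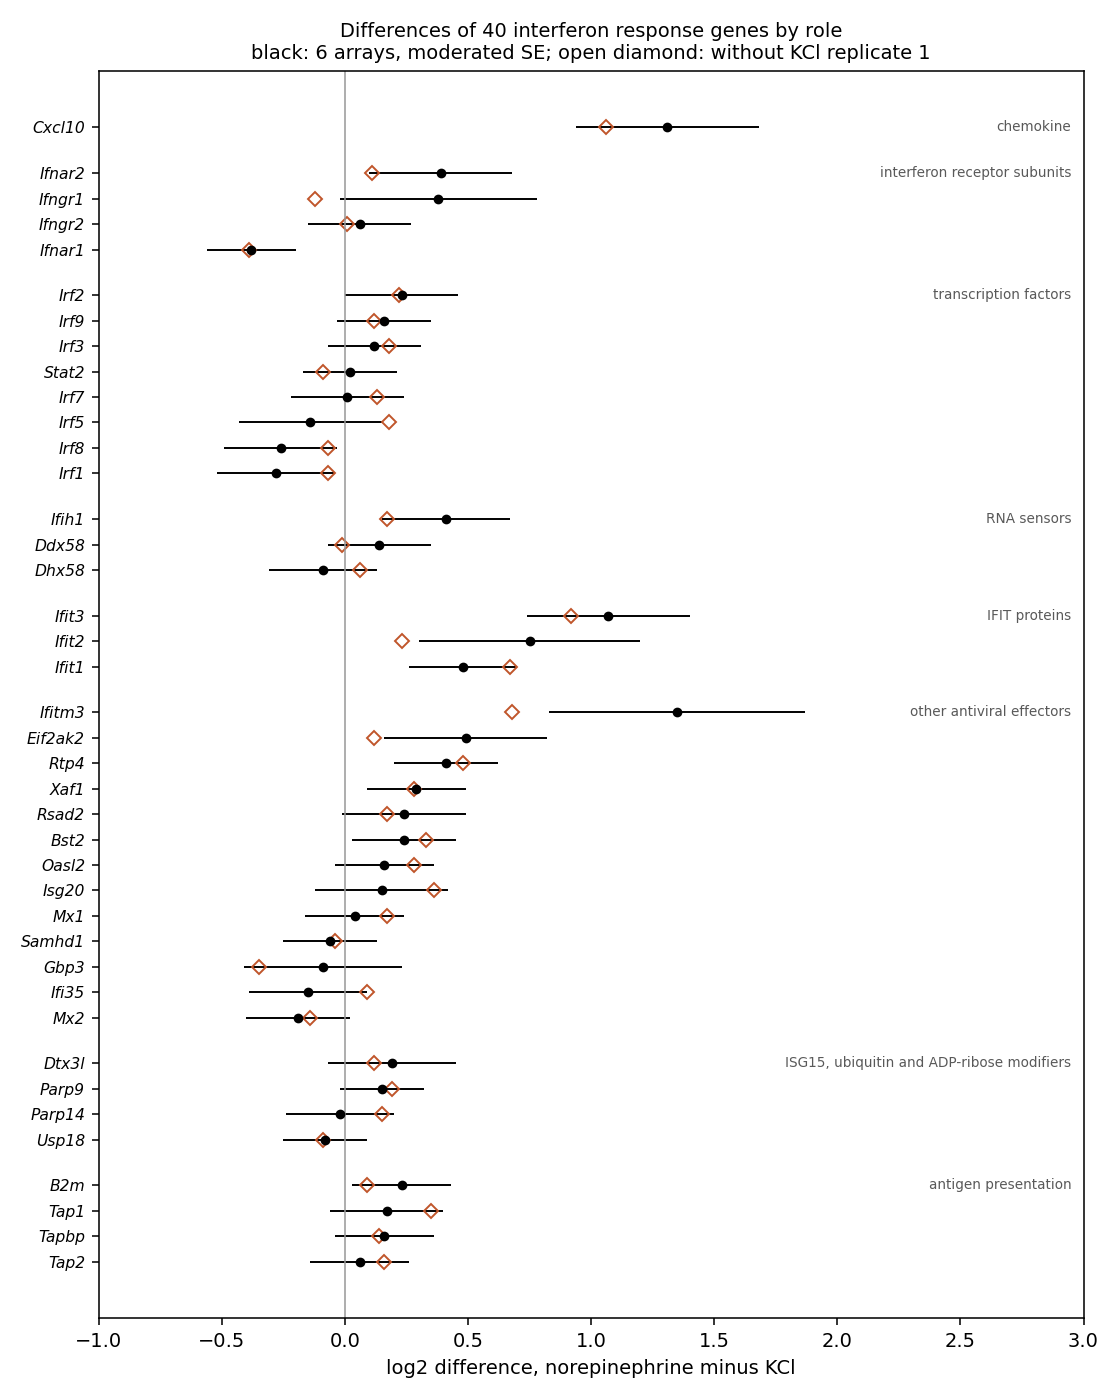
Log2 difference, norepinephrine minus KCl, of the 40 measured members ordered by role; black points with bars are differences ± moderated SE on 6 arrays, and open diamonds the differences without KCl replicate 1. Differences run from -0.38 (Ifnar1) to 1.35 (Ifitm3), most points lie between -0.3 and 0.5, and the diamonds of Ifitm3, Ifit2, Eif2ak2 and Ifngr1 lie well to the left of their points.

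The members also varied within a treatment. The median SD over 3 arrays was 0.19 with norepinephrine and 0.30 with KCl, against 0.16 and 0.35 over all named probe sets. KCl replicate 1 was the lowest array for 12 members (30%), near the 25.1% of all named probe sets. It was the highest for 9 members (22.5%), against 51.2% of all named probe sets. Norepinephrine replicate 1 was the highest array for 13 members (32.5%), against 9.53% of all named probe sets. KCl replicate 2 was the lowest for 15 members (37.5%), against 31.8% of all.

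Other genes of the pathway were taken from lists and read in the same fit. Beside them, 38% of all named probe sets read higher with norepinephrine, with a median of -0.07. Of those below the median brightness 16.7% did, with a median of -0.16. Of 8 measured genes encoding interferons themselves, 0 read higher with norepinephrine and the median was -0.22, and 6 of 8 read higher without KCl replicate 1, where the median was 0.05. Of these ligands, Ifnk, an interferon of epithelia, stood at -0.50 ± 0.21 (adjusted p = 0.939 in limma). Jak kinases, Stat3, Socs inhibitors and phosphatases divided evenly, 5 of 10 in each direction with a median of -0.04, and no member of that list had an unadjusted p under 0.05. The largest of them were Ptpn11 at -0.33 ± 0.24 and Jak1 at 0.32 ± 0.30, and without KCl replicate 1 they stood at -0.08 and 0.03. Genes of nucleic acid sensing stood at a median of -0.05, with 6 of 12 higher with norepinephrine and none at an unadjusted p under 0.05. Among them the kinase Tbk1 stood at 0.45 ± 0.37, the ubiquitin ligase Trim25, which activates RIG-I, at 0.41 ± 0.21 and the DNA sensor Cgas at -0.40 ± 0.21. Without KCl replicate 1 the Tbk1 difference turned to -0.01, and Trim25 and Cgas stood at 0.27 and -0.26.

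A further list of 30 measured interferon-stimulated genes had a median of -0.01, with 14 higher with norepinephrine and 0 at an unadjusted p under 0.05. Without KCl replicate 1 the median was 0.08 and 23 of the 30 read higher with norepinephrine. Ifitm2, of the same family as Ifitm3, read 9.94, 9.39 and 9.31 with norepinephrine and 6.51, 9.31 and 9.30 with KCl. KCl replicate 1 alone was low there, and the difference of 1.17 ± 0.67 was 0.24 without it. Epsti1, next in size, stood at -0.38 ± 0.25, or -0.12 without KCl replicate 1.

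Further genes of antigen processing had a median of 0.10 over 11 genes, 6 higher with norepinephrine. Without KCl replicate 1 the median was -0.03, with 5 of 11 higher. The immunoproteasome subunit Psmb10 read 8.63, 8.25 and 8.71 against 8.19, 7.84 and 7.82, a difference of 0.58 ± 0.21 (adjusted p = 0.939 in limma), and 0.70 without KCl replicate 1. Its companions Psmb8 and Psmb9, named after their values were seen, stood at 0.51 ± 0.24 and 0.14 ± 0.23. The groups were separate for Psmb10 and Psmb8, with norepinephrine higher, and overlapped for Psmb9.

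Of 16 chemokines and NF-kappaB targets, 2 (12.5%) read higher with norepinephrine and 14 lower, with a median of -0.22. Among all dim probe sets 16.7% read higher, with a median of -0.16. The list median was -0.01 without KCl replicate 1. Cxcl9 and Cxcl11, which share the receptor of Cxcl10 and were named after their values were seen, stood at -0.37 ± 0.31 and -0.31 ± 0.22, and at -0.08 and -0.13 without KCl replicate 1. Birc3, an inhibitor of apoptosis induced by NF-kappaB, stood at -0.50 ± 0.20 (adjusted p = 0.939 in limma).

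Markers of cell types were read beside these genes. Neural stem and radial glia markers, which define the labelled culture, had a mean of 9.61 to 9.73 on the norepinephrine arrays and 9.23 to 9.54 on the KCl arrays. Markers of astrocytes read higher with norepinephrine in 7 of 8 genes, with a median of 0.88 (0.69 without KCl replicate 1). Their list mean was 9.08 to 9.16 against 8.15 to 8.34. Of the 8, 6 had an unadjusted p under 0.05 (75%, against 3.43% of all) and 6 had separate groups (75%, against 9.13%). S100b read lower, at -0.29 ± 0.19. None passed after adjustment on 6 arrays. Gfap differed most, at 1.89 ± 0.30, and had an adjusted p of 0.045 in limma without KCl replicate 1. Markers of microglia and macrophages read lower in 15 of 16 genes, with a median of -0.22 and a list mean of 6.17 to 6.34 against 6.21 to 6.89. Thus 6.25% of them read higher with norepinephrine, where 16.7% of all dim probe sets did, with a median of -0.16. Without KCl replicate 1 the median of the microglia and macrophage markers was 0.01. Of the other immune markers, those of T cells and dendritic cells had a median of -0.21, and of 0.01 without that array. The part of any of these cell types in the readings of Cxcl10 and the IFIT genes was not tested. No marker can be called absent from these values, since no background signal was used here.

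**Figure D4:**
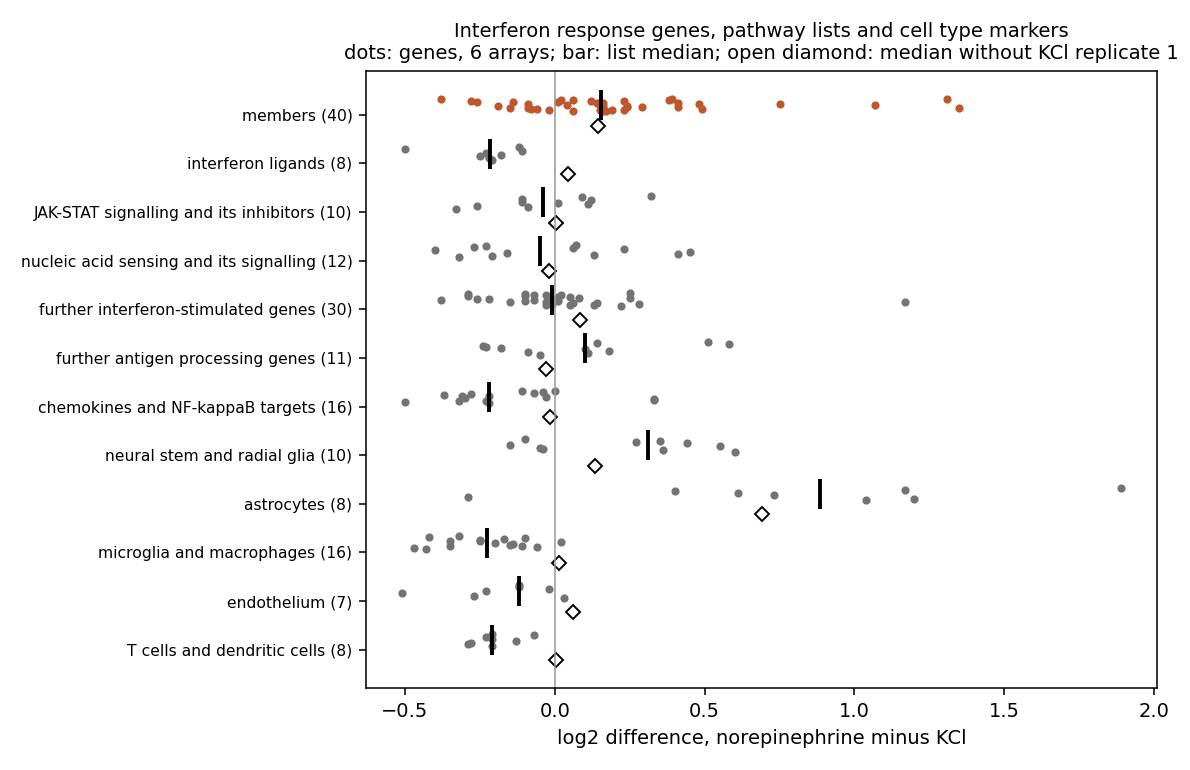
Log2 differences, norepinephrine minus KCl, of single genes (dots) in the 40 members, 6 pathway lists and 5 lists of cell type markers, with the number of measured genes in brackets; bars are list medians on 6 arrays and open diamonds medians without KCl replicate 1. The member median is 0.15 in both settings, while that of bright members moves from 0.20 to 0.11 and that of dim members from 0.10 to 0.16. The medians of interferon ligands, chemokines, microglia and T cell markers move from near -0.2 to near 0.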

How the data were processed

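The series matrix holds log2 expression values per probe set for 6 arrays. The deposited log2 values were made with Partek and RMA, per the submitters' processing notes; the sources used here give no version or setting. Their distributions still differ between arrays. Of 34760 probe sets, 21640 carry 1 gene symbol, 1321 several and 11799 none, and 21553 of the named ones matched RefSeq (GRCm38.p6) by Entrez identifier, with 0 symbols changed.

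Differences come from limma 3.58.1 in R 4.3.3 (lmFit, eBayes, two-sided, Benjamini-Hochberg over 21640 probe sets, threshold 0.05), without a replicate block. The fit was tested on simulated data. The number of arrays limits the precision. The members and lists were chosen with earlier results of these data known. Every array's values are printed for members at an unadjusted p under 0.05, the 10 largest absolute differences and the brightest and largest of each role, 17 in all. The alternatives were a further quantile normalization, centring, filters on dim probe sets, variance moderation, array weights, the replicate block, other probe sets and leaving out each array.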

Additional observations from a re-analysis of the deposited data

How the results depend on the processing

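With 3 arrays a group and no background signal, small differences and absent genes could not be resolved. The 40 member differences were recomputed under 15 other settings where the gene was still in the fit (36 at the 30th percentile filter, 20 at the median filter): 23 kept their sign throughout, 19 higher with norepinephrine and 4 higher with KCl. Dtx3l is counted among them although it stood at 0.00 after rounding without KCl replicate 3. The member median stayed between 0.11 and 0.20.

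The count of members at an unadjusted p under 0.05 was 3 on 6 arrays (3.43% of all probe sets). It was 5 after centring (3.76%) and 6 after a further quantile normalization (4.36%). With 1 array left out it was 2 to 6. It was 6 without KCl replicate 1 (4.63%) or KCl replicate 2 (16.3%), and 2 without norepinephrine replicate 1 (1.46%) or 3 (1.65%). Calls after adjustment over all probe sets were 0 to 4 when 1 array was left out, none of them members. With the filter at the median, 16 of 20 members read higher with norepinephrine, since fewer were tested.

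The labels do not say that equal replicate numbers share an animal or culture, so the numbers were not taken to pair the samples. Deviations of same-numbered arrays from their group means correlated at 0.30, 0.63 and 0.09, and those of other pairs at -0.47 to 0.31. Norepinephrine replicate 3 correlated best with KCl replicate 1. These correlations cannot settle the pairing, since the deviations within a group of 3 arrays sum to 0. With the replicate block, the unadjusted count was 8, where 6.64% of all probe sets had such a p, and the adjusted count 0.

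Array weights were chosen after seeing the data in their gene-by-gene form, as the planned default did not converge and was not run further. With them 1454 probe sets (6.72%) and 6 members passed after adjustment, Cxcl10, Ifnar1, Irf2, Ifit1, Ifit2 and Ifit3. Members with an unadjusted p under 0.05 numbered 12, where 23.9% of all probe sets had such a p. The cause was not tested.

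Sign changes were Stat2 -0.11, Irf7 -0.16, Ddx58 -0.09, Parp14 0.20 and Tapbp -0.09 with these weights, Parp14 0.01 after centring, and Ifngr2 -0.02, Dhx58 0.06, Usp18 0.03 and Parp14 0.09 after quantile normalization. With 1 array left out, ranges that crossed 0 were Ifngr1 -0.12 to 0.76, Ifngr2 -0.04 to 0.18, Stat2 -0.09 to 0.11, Irf5 -0.40 to 0.18, Irf7 -0.21 to 0.13, Ddx58 -0.01 to 0.23, Dhx58 -0.27 to 0.06, Isg20 -0.06 to 0.36, Mx1 -0.08 to 0.17, Gbp3 -0.35 to 0.23, Ifi35 -0.35 to 0.09, Samhd1 -0.15 to 0.05, Parp14 -0.16 to 0.15, Tap1 -0.03 to 0.35 and Tap2 -0.06 to 0.16.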
